A study of Mus musculus with 12 samples.

Results

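Doxycycline-induced overexpression of Foxd3 was examined in mouse embryonic stem cells (mESC) grown in serum, as 2 libraries of a line labelled tetON Foxd3 against 2 libraries of a wild-type line labelled LF2 WT. The genes described are those with a mean of at least 1 FPKM in either group, 11972 of the 19996 genes in the table; FPKM counts fragments relative to the length of the transcript and the total of the library. The series holds 12 libraries in 6 groups of 2, and the other 8 come from Foxd3fl/fl;Cre-ER cells in serum or 2i medium. A Foxd3 deletion in serum from that set is used for comparison.

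Foxd3 is a forkhead transcription factor, a protein that binds DNA through a winged-helix domain. It is known from pluripotent cells of the early embryo, from embryonic stem cells and from the premigratory neural crest, and it has been described both as a repressor and as a factor that opens enhancers for later use. Mouse embryonic stem cells in serum fluctuate between a naive state, marked by genes such as Nanog, Tbx3 and Dppa3, and states nearer the formative epiblast, marked by Otx2, Pou3f1 and Dnmt3b. A small share of such cells passes at any time through a 2-cell-like state that transcribes the Zscan4 cluster.

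Both lines were cultured without feeder cells in medium with 15% fetal bovine serum and leukemia inhibitory factor (LIF), and both received doxycycline; the labels give the dose (1 µg/µl) and time (3 days) for tetON Foxd3. In a tet-on line the drug switches on an integrated transgene, and wild-type cells given the drug control for the drug itself. The table holds no tetON Foxd3 cells without doxycycline, so the induced gene and any other difference between the lines cannot be told apart. The labels do not say how the tetON line was made, whether it is 1 clone, or whether the 2 replicates of a group were grown apart. The p-values therefore reflect only how far these libraries scatter, which may be technical. The pluripotency factors that define the cell type were high in all 4 libraries. Pou5f1 (Oct4) measured 739 and 638 FPKM in tetON Foxd3 and 724 and 782 FPKM in WT, and Sox2 201 and 168 against 156 and 166 FPKM. Between 11532 and 11765 genes per library reached 1 FPKM. The depth of a single library is unknown, since the authors give reads only as group means, which sum to about 52789800 in tetON Foxd3 and 52911400 in WT.

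Foxd3 itself (ENSMUSG00000067261, chromosome 4, 99656299 to 99658622, plus strand, GRCm38) measured 53.2 and 50.1 FPKM in the tetON Foxd3 libraries and 10.6 and 14.1 FPKM in the WT libraries. Both tetON libraries stood above both WT libraries, with means 4.19 times apart. On the log2(FPKM + 1) scale, which is used for all differences here and understates the change of low genes, Foxd3 rose by 1.99 (SE 0.15, limma adjusted p = 0.0145). The WT level is that of the endogenous gene. The table does not separate transgene reads from endogenous ones.

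Of the 11972 genes tested with limma, 119 were higher (0.994%) and 197 lower (1.65%) in tetON Foxd3 at a Benjamini-Hochberg adjusted p under 0.05. At an unadjusted p under 0.05 the counts were 1245 and 1241. The calls leaned toward the lower side more clearly among large changes, with 67 higher and 140 lower at a difference of at least 1 on the log2 scale, a fold of 2. The groups did not overlap in any of the 316 called genes (2.64%), and they did not overlap in 52.3% of all genes tested. Benjamini-Hochberg adjustment of the p-values in the authors' deposited table, over 19996 genes, gave 392 higher (1.96%) and 517 lower (2.59%), 4.55% together, and 292 of the 316 genes were called in the same direction by both. The number of limma calls rested on single libraries: it was 144 without tetON Foxd3 replicate 1, 42 without WT replicate 1 and 90 without WT replicate 2, and 35 genes passed with each of the 4 libraries left out in turn. The plot of all genes tested sets these calls against the mean level of each gene.

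**Figure D1:**
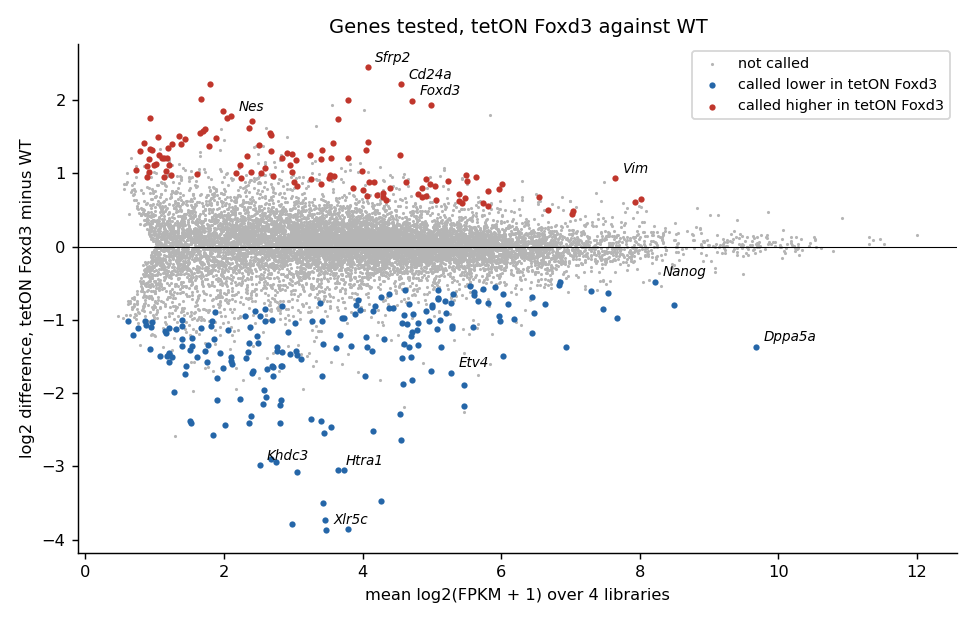
Each point is 1 of the 11972 genes tested. The horizontal axis gives the mean of log2(FPKM + 1) over the 4 libraries and the vertical axis the log2 difference of tetON Foxd3 minus WT; the 119 red genes were called higher and the 197 blue genes lower. The lowest points are genes of the Xlr family, at a log2 difference down to -3.86.

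The genes named first are the 15 largest rises and 15 largest falls with an established name whose log2 ratio of the authors' mean reads lay within 1 of the FPKM difference, a condition that set aside 22 higher and 13 lower genes. Sfrp2, a secreted antagonist of Wnt ligands, measured 53.5 and 27.6 FPKM in tetON Foxd3 and 5.42 and 7.12 FPKM in WT (log2 difference 2.45, SE 0.32, limma adjusted p = 0.033). Replicate 1 of tetON Foxd3 was nearly double replicate 2, and both lay well above the WT libraries. Cd24a, a glycosylphosphatidylinositol-anchored surface protein used to sort differentiating neural and stem cells, was tighter, at 49.999 and 49.2 FPKM against 8.9 and 10.9 FPKM (log2 difference 2.22, SE 0.13, adjusted p = 0.0113). Coch, an extracellular matrix protein of the inner ear, measured 23 and 30.8 FPKM against 4.18 and 8.2 FPKM. Tlr2, a receptor of innate immunity, measured 28.2 and 16.9 FPKM against 5.7 and 5.97 FPKM, and the Wnt receptor gene Fzd2 5.02 and 5.31 FPKM against 1.03 and 1.37 FPKM. In each of these 5 genes the nearest libraries of the 2 groups lay further apart on the log2 scale than the replicates of either group.

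Id2, an inhibitor of basic helix-loop-helix factors, measured 60.004 and 62.3 FPKM in tetON Foxd3 and 13.3 and 17.7 FPKM in WT, a ratio of means of 3.95 (log2 difference 1.93, SE 0.15, adjusted p = 0.0145). Sox4, a transcription factor of progenitor cells, measured 9.03 and 8.22 FPKM against 2.35 and 1.58 FPKM. Gadd45g, a stress sensor that is also active in neural differentiation, measured 8.7 and 7.39 FPKM against 2.01 and 1.88 FPKM. Nes, the intermediate filament nestin of neural progenitors, measured 5.77 and 8.41 FPKM against 1.11 and 1.56 FPKM, and Cdk5r2, a neuronal activator of the kinase Cdk5, 8.7 and 4.93 FPKM against 1.41 and 1.08 FPKM. The other genes of the 15 largest rises were Colec12, a scavenger receptor with a collagen-like stalk, the lipid droplet protein gene Cidea, the collagen receptor gene Mrc2 and Frmd4b, which encodes a scaffold protein of cell junctions; their ratios of means ran from 3.6 to 6.07. Of the 15 rises, Foxd3, Cd24a and Id2 passed with each library left out in turn, and the other 12 were lost in at least 1 of the 4. Without WT replicate 1, 4 of the 15 passed, and without WT replicate 2, 5, with adjusted p up to 0.112 and 0.0991.

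**Figure D2:**
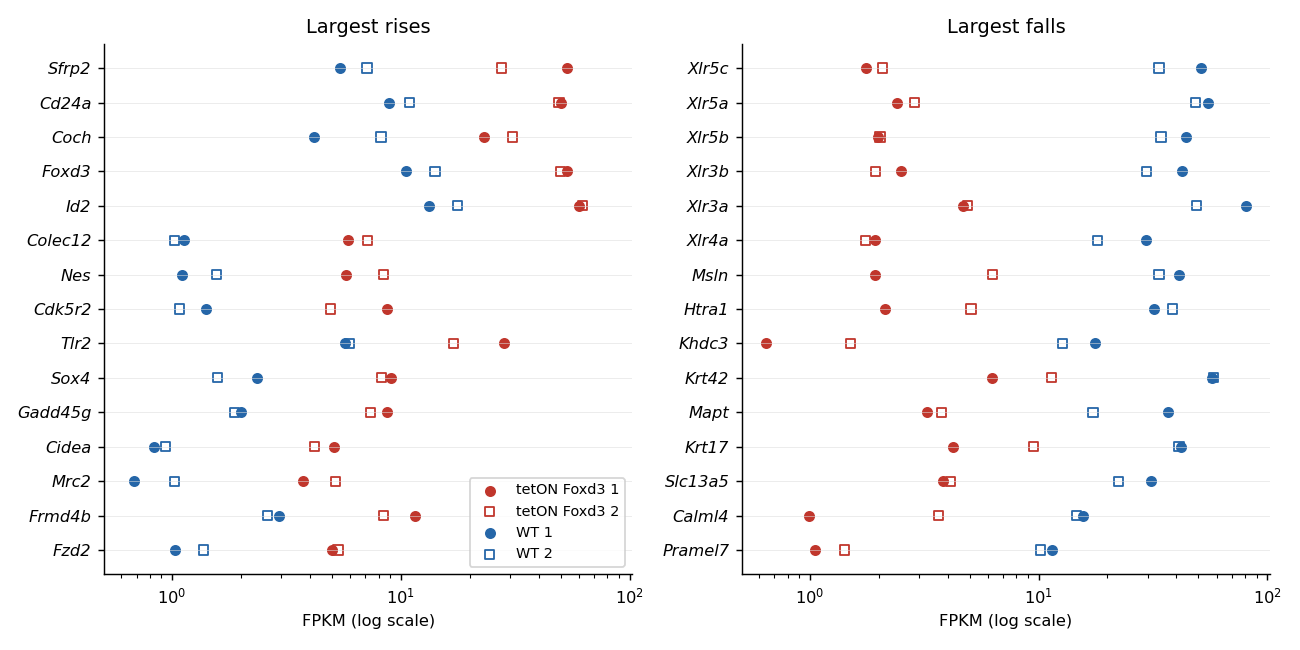
FPKM per library on a log axis for the 15 largest rises (left) and the 15 largest falls (right); circles are replicate 1 and squares replicate 2, red for tetON Foxd3 and blue for WT. In every row both red points lie on the same side of both blue points. The 6 Xlr genes at the top right lie between 1.76 and 4.87 FPKM in tetON Foxd3 and between 18.1 and 80.7 FPKM in WT.

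The largest falls belonged to the Xlr3, Xlr4 and Xlr5 genes, a cluster of lymphocyte-regulated genes on the X chromosome (73074345 to 73292976, GRCm38) whose members carry a domain shared with the meiotic protein Sycp3. All 9 genes of these 3 groups were tested and all 9 fell, with log2 differences from -3.86 to -2.90 and a median of -3.50. Xlr5a measured 2.42 and 2.87 FPKM in tetON Foxd3 and 54.9 and 48.3 FPKM in WT (SE 0.14, limma adjusted p = 0.00432). Xlr3a, the member with the highest level, measured 4.66 and 4.87 FPKM against 80.7 and 48.8 FPKM, and Xlr4a 1.93 and 1.76 FPKM against 29.4 and 18.1 FPKM. The 6 members among the largest falls, Xlr5c, Xlr5a, Xlr5b, Xlr3b, Xlr3a and Xlr4a, passed with each library left out in turn. The related gene Xlr itself differed by 0.02. In the serum deletion, whose cells are another line, the mean of Xlr3a was 22.7 FPKM with deletion and 24.2 FPKM without, and that of Xlr5a 0.104 and 0.15 FPKM. The log2 difference of Xlr3a there was -0.06.

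The copies cannot be counted as 9 separate findings. Of the 50-base words in the GENCODE transcripts of a member, 40.9% (Xlr3a) to 90.7% (Xlr5b) also occur in another member, so the authors' counting may have divided or shared reads between them. The sharing extends to the regulatory sequence. The promoters of Xlr5a and Xlr5b are shown because they are the most alike of the family. Both are from RefSeq (GRCm38.p6), 300 bases from 250 before the start of transcription, written 5′ to 3′ on the strand of the gene; Xlr5a lies at chrX:73117653-73117952 on the minus strand and Xlr5b at chrX:73148591-73148890 on the plus strand. Capitals mark the 255 bases that are identical in both.
Xlr5a: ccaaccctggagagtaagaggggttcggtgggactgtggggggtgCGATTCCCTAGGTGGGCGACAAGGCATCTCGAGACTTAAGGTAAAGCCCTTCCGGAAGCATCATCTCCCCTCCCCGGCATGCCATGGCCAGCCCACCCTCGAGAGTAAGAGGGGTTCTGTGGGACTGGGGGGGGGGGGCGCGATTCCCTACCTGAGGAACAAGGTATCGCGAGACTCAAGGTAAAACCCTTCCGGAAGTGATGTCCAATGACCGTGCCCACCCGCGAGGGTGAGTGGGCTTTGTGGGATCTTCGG
Xlr5b: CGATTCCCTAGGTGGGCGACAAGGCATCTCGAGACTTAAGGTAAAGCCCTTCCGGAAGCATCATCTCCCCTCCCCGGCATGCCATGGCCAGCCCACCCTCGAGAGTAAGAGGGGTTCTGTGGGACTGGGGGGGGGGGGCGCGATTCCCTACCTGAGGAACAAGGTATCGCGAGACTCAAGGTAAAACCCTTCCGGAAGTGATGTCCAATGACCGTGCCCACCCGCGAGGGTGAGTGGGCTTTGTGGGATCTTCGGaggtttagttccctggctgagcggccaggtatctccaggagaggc
The promoters of the 3 Xlr4 genes were 98.1% to 98.6% identical over 270 to 293 aligned bases, and those of Xlr3b and Xlr3c 94.3% over 280. No such alignment of at least 40 bases was found between Xlr3, Xlr4 and Xlr5 promoters, nor between that of Xlr5c and those of Xlr5a and Xlr5b.

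A second group of falls consists of genes known from the oocyte, the cleavage-stage embryo and naive stem cells. Khdc3, a KH-domain protein of the subcortical maternal complex, measured 0.643 and 1.51 FPKM against 17.7 and 12.7 FPKM (log2 difference -2.98, SE 0.27, limma adjusted p = 0.0177). Ooep, a partner in the same complex, measured 11 and 12 FPKM against 52.6 and 38.3 FPKM, and Dppa5a, a KH-domain gene abundant in pluripotent cells, 462 and 563 FPKM against 1384 and 1252 FPKM. All 3 tested members of this KH-domain group on chromosome 9 fell. These families were picked after their values were seen.

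Pramel7 and Pramel6, leucine-rich repeat proteins of the inner cell mass and of naive stem cells, lie side by side on chromosome 2. Pramel7 measured 1.05 and 1.41 FPKM against 11.4 and 10.2 FPKM (log2 difference -2.41, SE 0.16, adjusted p = 0.0118), and Pramel6 1.25 and 2.53 FPKM against 10.5 and 12.7 FPKM. Of 9 genes of the Pramel and Pramef family 6 were tested. Of these, 3 fell (with Pramef17), against 1.65% of all genes tested, and the other 3 did not pass. Pramef17 and Pramel1 reached the level for testing through WT alone, so a difference was built into their choice. Pramef8 measured 7.96 and 8.84 FPKM against 7.15 and 7.99 FPKM. The promoters of Pramel7 and Pramel6 are shown because, among the searched promoters of the largest rises and falls, only that of Pramel7 carries a forkhead word. They are RefSeq sequences (GRCm38.p6), 5′ to 3′ on the strand of the gene, at chr2:87492369-87492668 (Pramel7, minus strand) and chr2:87506315-87506614 (Pramel6, plus strand). Capitals mark the match in Pramel7.
Pramel7: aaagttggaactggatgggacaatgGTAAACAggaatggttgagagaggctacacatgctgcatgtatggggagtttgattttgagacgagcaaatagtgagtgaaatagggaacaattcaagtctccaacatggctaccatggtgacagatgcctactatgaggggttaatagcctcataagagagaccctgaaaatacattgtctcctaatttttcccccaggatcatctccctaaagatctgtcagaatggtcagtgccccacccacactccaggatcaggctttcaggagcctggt
Pramel6: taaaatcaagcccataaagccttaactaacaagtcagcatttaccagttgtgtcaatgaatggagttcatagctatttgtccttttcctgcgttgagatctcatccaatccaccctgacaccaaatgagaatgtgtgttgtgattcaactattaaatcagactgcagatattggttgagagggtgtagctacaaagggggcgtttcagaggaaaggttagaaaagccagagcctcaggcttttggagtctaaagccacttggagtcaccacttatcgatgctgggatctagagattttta
The word searched was TGTTTAC or TGTTTGC, the core bound by forkhead proteins, on both strands, and the match in Pramel7 is the reverse complement of the first, with its first base 225 bases before the RefSeq start. Of the 31 genes made up of the largest rises and falls and Foxi3, 23 had at least 1 promoter in the table, 26 promoters in all, and 1 held the word. Over all promoters of the table the share was 8.48%, over those of tested genes 5.91%, over those of genes called higher 3.6% and over those of genes called lower 4.88%. TGTTTAC alone was in 3.66% of the promoters of genes called lower (6 of 164), 1.8% of those of genes called higher and 2.47% of those of tested genes, and TGTTTGC alone in 1.22%, 1.8% and 3.53%. No match says only that these letters are not in this window.

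The remaining large falls include epithelial and metabolic genes. Msln, the surface protein mesothelin, measured 1.92 and 6.27 FPKM against 41.2 and 33.6 FPKM, and Htra1, a secreted serine protease, 2.13 and 5.07 FPKM against 32.1 and 38.4 FPKM. The keratin genes Krt42 and Krt17, neighbours on chromosome 11, measured 6.23 and 11.4 and 4.24 and 9.51 FPKM in tetON Foxd3 against 57.5 and 58 and 41.9 and 41.1 FPKM in WT. Mapt, the microtubule protein tau, measured 3.24 and 3.77 FPKM against 36.7 and 17.3 FPKM, and the citrate transporter gene Slc13a5 3.83 and 4.13 FPKM against 31.1 and 22.3 FPKM. For Msln, Htra1, Krt17 and the calmodulin-like gene Calml4 the 2 tetON libraries differ more than 2-fold, with replicate 2 the higher, while the WT libraries are close. Those 4 genes were lost without WT replicate 1 and without WT replicate 2, with adjusted p up to 0.138, and Krt42 was lost without WT replicate 1. The other 10 of the 15 falls passed in all 4 cases.

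The members of 40 gene lists for pluripotency, cell types, pathways and housekeeping were then followed. Of 675 distinct members tested, 15 were higher (2.22%) and 33 lower (4.89%), against 0.994% and 1.65% of all genes, and 14 of the 40 lists held no call. The lists were chosen with earlier results of these data known, and the higher members include Foxd3 itself, so the shares are a description only. The median log2 difference over all genes was 0.03. Of the 11497 tested genes outside chromosome 12, 54.8% stood above 0, a share to set beside the counts of signs below. In bulk libraries, fewer cells of a kind and less RNA per cell cannot be told apart, and this holds for every list below. The 48 calls became 27 without tetON Foxd3 replicate 1, 14 without WT replicate 1 and 24 without WT replicate 2.

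Naive pluripotency genes stood lower. Of 22 listed and tested, 6 fell and 0 rose, 18 of the 22 differences were below 0, and the median was -0.50 (-0.51 to -0.41 with 1 library left out). Dppa3 (Stella), a protector of maternal methylation, measured 2.02 and 2.02 FPKM in tetON Foxd3 and 9.95 and 11.5 FPKM in WT (log2 difference -1.95, SE 0.15, adjusted p = 0.0145). Tbx3, a T-box factor of the naive network, measured 18.5 and 18.4 FPKM against 38.9 and 39 FPKM, values nearly equal within each group, but was lost without 2 of the libraries (adjusted p up to 0.0696). Manba, a lysosomal mannosidase that tracks the naive state, measured 17.6 and 15.7 FPKM against 52.8 and 60.2 FPKM, and the F-box gene Fbxo15 62.9 and 65.2 FPKM against 126 and 117 FPKM. Nanog fell least of the 6, from 367 and 339 FPKM in WT to 249.9 and 255 FPKM in tetON Foxd3 (log2 difference -0.48, SE 0.08, adjusted p = 0.0497), and it was lost with any 1 of the 4 libraries left out (adjusted p = 0.0781 to 0.159). The list held 3 falls without WT replicate 1. Klf4 (113 and 94.7 against 90.8 and 111 FPKM), Fgf4 (108 and 96.1 against 103 and 94.1 FPKM) and Zfp42 (328 and 320.3 against 353 and 415 FPKM) did not pass. Esrrb, at 209 and 200.03 FPKM against 138 and 185 FPKM, had the largest positive difference of the list, 0.35, without passing.

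Of the 16 members of the core pluripotency list 2 fell and 9 differences were above 0. The median was 0.16, and it was 0.03 without tetON Foxd3 replicate 1, 0.05 without WT replicate 2 and -0.04 without WT replicate 1, so its sign rested on single libraries. The 2 falls were the neighbouring chromatin genes Dppa2, at 14.7 and 18.6 FPKM against 42.3 and 44.8 FPKM, and Dppa4, at 29.7 and 27.6 FPKM against 50.4 and 49.1 FPKM. Dppa4 did not pass with any library left out, and neither gene passed without WT replicate 1 or WT replicate 2. Pou5f1, Sox2 and Sall4 differed by -0.13, 0.19 and 0.19 on the log2 scale, with adjusted p of 0.386 or more.

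Genes of the formative and primed epiblast leaned the other way. Of 17 tested, 15 differences were above 0, with a median of 0.47. The median was 0.36 with no filter and 0.25 with a filter of 5 FPKM. Apart from Foxd3, which is itself on the list, none passed as higher, while Etv4 fell. Otx2, a homeodomain factor of the formative state, measured 50.6 and 17.4 FPKM against 7.83 and 7.17 FPKM: both tetON libraries exceed both WT libraries, but they differ from each other nearly 3-fold, and the adjusted p was 0.101. The de novo DNA methyltransferase genes Dnmt3b (61.6 and 55.5 against 25.7 and 35.5 FPKM, adjusted p = 0.0561) and Dnmt3a (23.5 and 18.8 against 11.7 and 13.4 FPKM, adjusted p = 0.0769) were close to the threshold. Their catalytically inactive cofactor Dnmt3l fell, from 153 and 111 FPKM to 53.6 and 60.8 FPKM (log2 difference -1.18, SE 0.17, adjusted p = 0.0409), the single call among the 13 genes of DNA methylation and TET enzymes, and it was lost without WT replicate 1 (adjusted p = 0.0684) and without tetON Foxd3 replicate 1 (adjusted p = 0.0623). By the authors' deposited table, adjusted here, 5 of the 23 genes of the formative list were called higher, Foxd3 among them, and 1 lower. Over all genes of that table the shares were 1.96% and 2.59%. Fgf5, a marker of the primed epiblast, stayed under 0.1 FPKM in all 4 libraries.

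**Figure D3:**
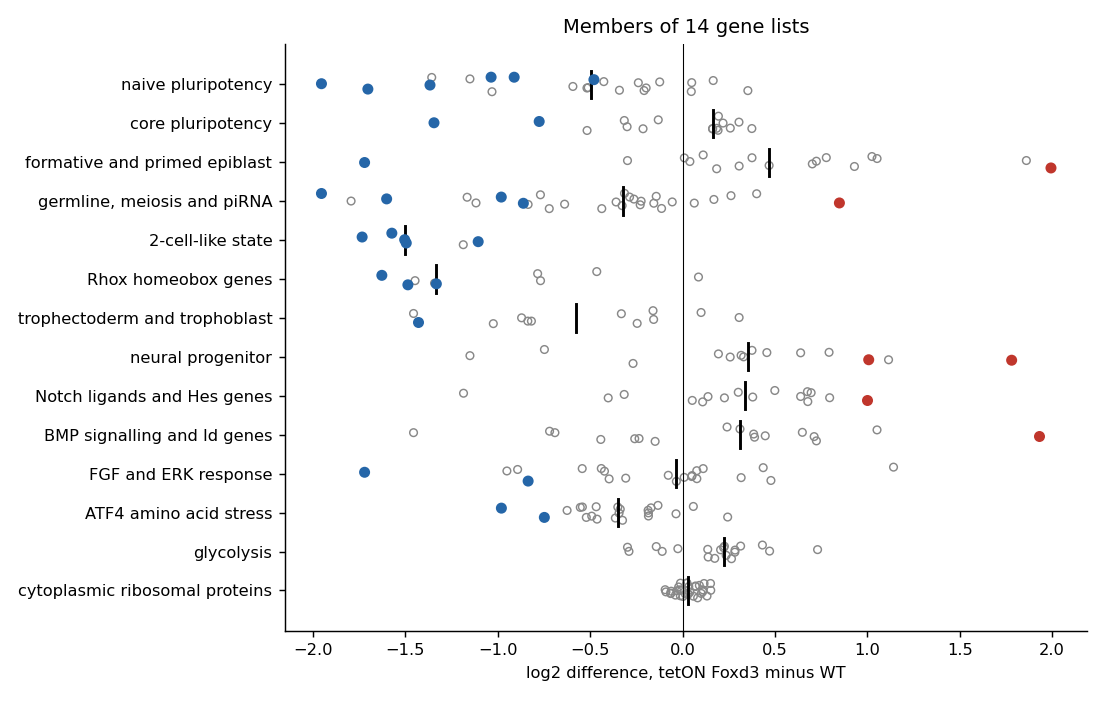
Log2 differences of the tested members of 14 of the 40 lists. Open grey circles did not pass, filled blue circles were called lower and filled red circles higher; black bars are medians. The bar of the naive list lies at -0.50, that of the formative list at 0.47 and that of the ribosomal protein genes at 0.03.

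Genes of the 2-cell-like state were low in all libraries. Among 15 listed genes that the authors' file holds, 6 reached the level for testing, each through its WT level alone, so that a difference was built into their choice. Over all 15 genes, with no filter, the median log2 difference was -0.58. In that setting 0 of all 17032 genes passed, so the lack of calls says nothing about this list. Zscan4c, a SCAN-domain zinc finger gene linked to telomere maintenance, measured 0.493 and 0.489 FPKM in tetON Foxd3 and 3.49 and 4.48 FPKM in WT (log2 difference -1.73, SE 0.17, adjusted p = 0.0204). Gm4340 measured 0.484 and 0.329 FPKM against 2.74 and 3.24 FPKM. The summed level of the list was 3.21 and 2.9 FPKM in tetON Foxd3 and 18.96 and 24.3 FPKM in WT, and the groups do not overlap. Of the 6 genes tested 5 passed, and 0 passed with WT replicate 1 or WT replicate 2 left out. Between 42.4% (Zscan4d) and 89% (Zscan4e) of the 50-base words of the Zscan4 transcripts occur in another copy, so the split between copies is uncertain.

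The Rhox list, X-linked homeobox genes of germ cells and placenta, had 3 falls among 9 tested members; the median was -1.33 over these and -0.77 with no filter. Rhox5 measured 40.5 and 35.6 FPKM against 101 and 116 FPKM (log2 difference -1.49, SE 0.11, adjusted p = 0.0145) and passed with each library left out. Rhox1 measured 3.3 and 2.83 FPKM against 12.4 and 10.7 FPKM and Rhox13 6.97 and 4.76 FPKM against 17.8 and 14.5 FPKM. Both were lost without WT replicate 1 (adjusted p = 0.0705 and 0.147), and Rhox13 also without WT replicate 2 (adjusted p = 0.0753). Rhox10, at 3.24 and 1.7 FPKM against 2.47 and 1.93 FPKM, was the single member with a difference above 0. Of the 28 germline, meiosis and piRNA genes tested, 4 fell (Dppa3, the ribosomal protein retrogene Rpl10l, the intercellular bridge gene Tex14 and Taf7l) and 1 rose. The median was -0.32, and it was -0.03 without WT replicate 1, -0.61 without WT replicate 2 and -0.54 without tetON Foxd3 replicate 1. The gene that rose was Sycp3, a protein of the synaptonemal complex, at 88.3 and 82.2 FPKM against 53.2 and 41.3 FPKM, an opposite direction to its Xlr relatives. Sycp3 was lost with any 1 library left out, and the germline list kept 1 fall without WT replicate 1 and 2 without tetON Foxd3 replicate 1. The piRNA gene Piwil2 (2.65 and 1.54 against 13.4 and 6.75 FPKM) did not pass. Of 10 genes of primordial germ cell specification, 9 differences were below 0 and Dppa3 alone passed; Tfap2c measured 10.7 and 15 FPKM against 24.2 and 29.7 FPKM (adjusted p = 0.0608). Of 12 trophectoderm genes, 10 were below 0, with a median of -0.57 (-0.13 with no filter and -0.21 without WT replicate 1). The TEAD factor gene Tead4 fell, from 12.7 and 8.15 to 3.29 and 3.01 FPKM, while Cdx2 stayed under 0.1 FPKM in every library. Tead4 was lost without WT replicate 1 and without either tetON Foxd3 library (adjusted p up to 0.116).

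Neural progenitor genes tilted upward, with 11 of 14 differences above 0 and a median of 0.35 (0.14 with no filter). Nes and Sox1 rose; Sox1, an early neuroectoderm factor, measured 5.31 and 5.45 FPKM against 2.04 and 2.31 FPKM (log2 difference 1.01, SE 0.15, adjusted p = 0.0421). Neurod1 (7.11 and 5.02 against 2.32 and 2.13 FPKM) and Pax6 (4.63 and 6.5 against 2.7 and 7.005 FPKM) did not pass, and 18 listed genes did not reach the level for testing. Nes was lost without WT replicate 1 and without WT replicate 2, and Sox1 without any 1 of the 4 libraries. Of 9 neural crest genes tested, Id2 rose and the neurotrophin receptor gene Ngfr fell, from 6.93 and 8.08 to 2.24 and 3.1 FPKM, and Sox10, which defines migrating crest, stayed under 0.1 FPKM in all 4 libraries. Among 23 genes of cadherins and the epithelial state, Vim rose to 258 and 296 FPKM from 137 and 152 FPKM and Cdh3 (P-cadherin) to 16.6 and 13.1 from 7.52 and 6.95 FPKM, whereas Grhl2, an epithelial transcription factor, fell to 2.21 and 2.96 from 9.05 and 6.9 FPKM. Cdh1 (E-cadherin) measured 56.2 and 85 FPKM against 103 and 102 FPKM and did not pass. In the endoderm list Fst, the activin antagonist follistatin, rose to 2.73 and 2.56 from 0.381 and 0.501 FPKM. Fst reached the level for testing through tetON Foxd3 alone, so a difference was built into its choice. The apolipoprotein gene Apom fell to 1.24 and 1.34 from 8.46 and 8.83 FPKM, and 15 of the 17 tested did not pass. Ngfr, Cdh3, Grhl2 and Fst were each lost without WT replicate 1, WT replicate 2 or tetON Foxd3 replicate 1, with adjusted p up to 0.115, 0.147, 0.146 and 0.111, and Vim was lost without WT replicate 1 (adjusted p = 0.0702).

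The fibroblast and matrix list served as a check for other cells, since these cultures had no feeders. Its summed level was 592 and 608 FPKM in tetON Foxd3 and 529 and 479 FPKM in WT, mostly from Vim, Fn1, Timp1 and Sparc, which stem cells also express. The defining collagen gene Col3a1 and the proteoglycan gene Lum were listed at 0 in all 4 libraries, and Col1a1 and Col1a2 stayed under 0.72 FPKM. Of 14 tested members 1 rose, Vim, and 2 fell, S100a6 among them. S100a6, a calcium-binding protein, measured 24 and 20.04 FPKM against 94.5 and 74.1 FPKM.

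Signalling lists held few calls, and those were mostly single genes. In the BMP and Id list Id2 rose and the other 16 tested members did not pass; Id1 measured 133 and 101 FPKM against 69.5 and 70.1 FPKM (adjusted p = 0.0668), Id3 16.3 and 22.8 against 5.32 and 14.1 FPKM and Bmp4 2.97 and 2.95 against 7.08 and 13.6 FPKM. Of 21 FGF and ERK response genes 2 fell. Etv4, an ETS factor induced by FGF signalling, measured 19.4 and 21.6 FPKM against 67 and 72.5 FPKM (log2 difference -1.72, SE 0.10, adjusted p = 0.0113) and passed with each library left out. The ligand gene Fgf17 measured 14.9 and 14.3 FPKM against 25.9 and 27.7 FPKM, while the related target Etv5 (83.4 and 83.1 against 62.7 and 94.5 FPKM) and the feedback phosphatase gene Dusp6 (10.6 and 9.8 against 7.75 and 11.8 FPKM) did not pass. The Notch ligand gene Jag2 rose to 7.47 and 6.96 from 3.14 and 3.08 FPKM, with 13 of 16 differences of its list above 0. In the Wnt list Porcn, the acyltransferase that makes Wnt ligands active, fell to 7.85 and 7.89 from 20.6 and 23 FPKM. In the Nodal list Skil, a feedback inhibitor of SMAD proteins, rose to 24 and 23.8 from 15 and 14.1 FPKM, and the Nodal antagonist gene Lefty1 measured 76.8 and 145 FPKM against 17.9 and 48.6 FPKM without passing (adjusted p = 0.129). In the LIF list Spp1 rose to 335 and 311 from 196 and 215 FPKM. All of these pathway calls except Id2 and Etv4 were lost with at least 1 library left out.

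Among 18 forkhead genes tested, Foxd3 and Foxi3 rose and 0 fell. Foxi3, a gene of the cranial placodes and hair follicles, measured 4.97 and 5.77 FPKM in tetON Foxd3 and 0.446 and 0.719 FPKM in WT (log2 difference 2.01, SE 0.18, adjusted p = 0.0177), and it was lost without WT replicate 1 (adjusted p = 0.0553). Foxi3 reached the level for testing through tetON Foxd3 alone, so a difference was built into its choice. It is left out of the largest rises because the log2 ratio of the authors' mean reads, 3.28, exceeded the FPKM difference by more than 1. Foxo3 measured 23.7 and 22.4 FPKM against 15.6 and 15.2 FPKM, and Foxh1 and Foxp4 had differences of -0.03 each.

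Cyclin D3 gave the single call among 35 genes of the cell cycle. Ccnd3 fell from 196 and 195 FPKM in WT to 76.5 and 74.2 FPKM in tetON Foxd3 (log2 difference -1.36, SE 0.08, adjusted p = 0.0113) and passed with each library left out. Cyclin D1, Ccnd1, measured 56.5 and 61.4 FPKM against 22.7 and 40.4 FPKM and did not pass. Of 23 genes of the ATF4 response to amino acid shortage 21 differences were below 0, with a median of -0.35, and 2 fell: Asns, the asparagine synthetase, at 133 and 158 FPKM against 291 and 283 FPKM, and Nupr1 at 35.6 and 40.6 FPKM against 60.1 and 69.3 FPKM; without WT replicate 1 or WT replicate 2 the list had 0 calls, and its median was -0.13 without WT replicate 2. Of 24 p53 targets 20 were above 0 with a median of 0.25 and 0 passed. Among 22 imprinted genes Gnas and Nnat rose and Xlr3b fell; Nnat, the proteolipid neuronatin, measured 11 and 11.7 FPKM against 3.76 and 5.21 FPKM. Nnat was lost with any 1 library left out (adjusted p up to 0.121), and Gnas passed only without tetON Foxd3 replicate 2. None of the genes passed in the Polycomb, sterol synthesis, glycolysis, hypoxia, mitochondrial ribosomal, respiratory chain or cytoplasmic ribosomal lists, and the 14 lists without a call had adjusted p of 0.0559 or more.

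Glycolysis and hypoxia genes differed more between replicates 1 and 2 than between the lines. The median difference between replicate 1 and replicate 2 over the 19 hypoxia genes was 1.01 in tetON Foxd3 and 0.95 in WT, and over the 19 glycolysis genes 0.72 and 0.65, whereas the medians between the lines were 0.12 and 0.22. With 1 library left out the latter ran from -0.47 to 0.57 for hypoxia and from -0.16 to 0.64 for glycolysis. Bnip3, a mitophagy receptor induced by low oxygen, measured 146 and 33 FPKM in tetON Foxd3 replicates 1 and 2 and 96.8 and 21.7 FPKM in the WT replicates, and Ndufa4l2 63.8 and 2.25 and 29.6 and 0.746 FPKM. Replicate 1 was the higher in both lines for both genes. What the replicates with the same number share was not stated in the labels.

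The called genes were unevenly placed in the genome. On chromosome 12, from Acot2 (start 83987861) to the end, 175 genes were tested, of which 24 were called higher (13.7%) and 3 lower (1.71%), with a median log2 difference of 0.51 and quartiles of 0.28 and 0.66. In this stretch 155 genes (88.6%) stood above 0, and the median ratio of FPKM means was 1.48. The 4 pairings of a tetON with a WT library gave medians from 0.46 to 0.54. The 247 tested genes of chromosome 12 before Acot2 had a median of 0.06, with 3 called higher, and the 11497 genes of all other chromosomes 0.03, with 92 called higher (0.8%). The 2 tested genes just before the limit, Numb and 2410016O06Rik, differed by 0.04 and 0.32. Of the 24 rises, 5 passed in 1 of the 4 fits with a library left out and 19 in none, each with an adjusted p over 0.05 otherwise. In the serum deletion the same 175 genes had a median of 0.02.

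The called genes of this stretch include Akt1, a central kinase of growth signalling, Dync1h1, the heavy chain of cytoplasmic dynein, Evl, a regulator of actin, and Irf2bpl. Jag2 and the NuRD subunit gene Mta1 (86.4 and 76.9 against 43.1 and 50.9 FPKM), the calls of the Notch and the LSD1 and NuRD lists, also lie there. Without this stretch the Notch list had 0 calls among 15 members and the LSD1 and NuRD list 0 among 25. The count over all genes was then 95 higher and 194 lower. Esrrb, the naive gene with the largest positive difference, lies in it too. The limit at Acot2 was set after the values were seen, and what sets the stretch apart was not tested. The X chromosome held 36 of the 197 falls, 7.59% of its 474 tested genes. Of these falls, 26 lay among the 336 genes before 130 Mb (7.74%), where the median was -0.01, and they include the 9 Xlr copies. The 138 genes of that chromosome from 130 Mb onward had a median of -0.33 with 10 falls (7.25%) and 0 rises. The 77 genes of chromosome 14 between 70 and 110 Mb had a median of -0.31.

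**Figure D4:**
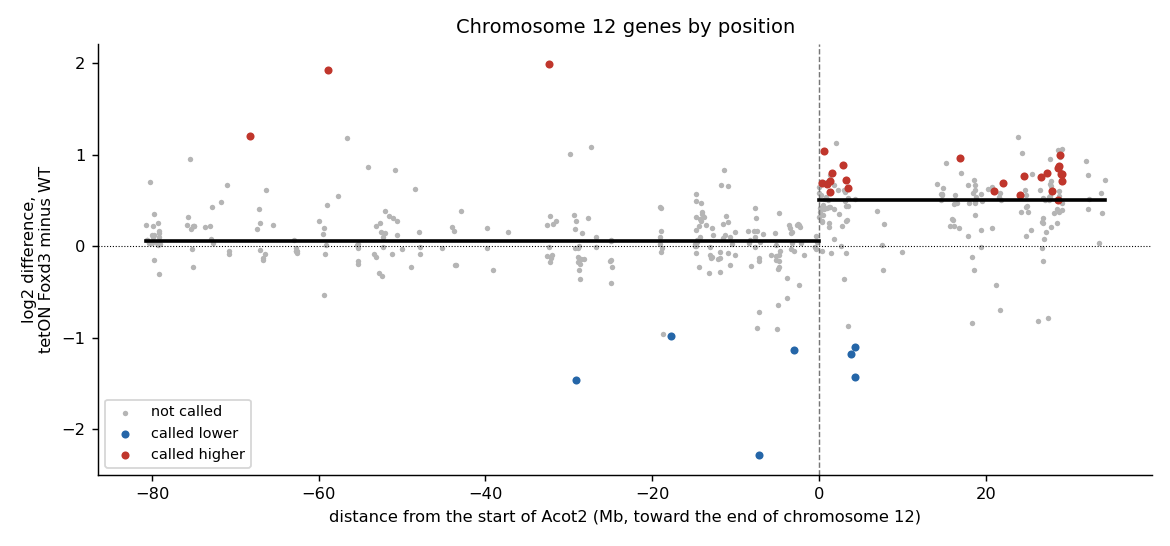
Log2 difference of each tested gene on chromosome 12 against its distance from the start of Acot2 in megabases. Red and blue points were called higher and lower, and black lines are the medians, 0.06 for the 247 genes before Acot2 and 0.51 for the 175 genes from Acot2 on.

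The deletion of Foxd3 in serum shares no library with the overexpression and gives a second view of the same genes. There, Foxd3fl/fl;Cre-ER cells on feeders received 4-hydroxytamoxifen (2 µM) for 3 days or were left untreated; the medium of that table was taken from its name. The untreated cells do not control for the drug or the activated Cre, so neither can be told apart from the loss of Foxd3. The 26 fibroblast and matrix genes tested there had a median log2 difference of 0.53, against -0.01 over all genes tested in both comparisons. Whether the amount of feeder RNA differed between those groups was not tested. With 1 gene (0.00832%) past limma's adjusted threshold in that comparison, the values are given at an unadjusted p under 0.05. Of its 12024 genes, 6.07% passed this as higher and 3.05% as lower. Of the 197 genes lower with overexpression 171 were tested in the deletion. Of these, 132 (77.2%) stood above 0, against 47.6% of all genes tested in both, and 66 were higher and 3 lower at the unadjusted p. Of the 119 genes higher with overexpression 110 were tested, 74 (67.3%) stood below 0, and 19 were lower and 9 higher. The table of the same deletion in 2i medium gave another picture: 71.2% of the genes lower with overexpression and 57.8% of those higher stood above 0, against 67.1% of all genes. In that table Foxd3 was at a mean of 2.26 FPKM in the libraries labelled deleted and 2.47 FPKM in the floxed ones, so its level does not match the label, and no direction is drawn from it.

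Pramel7 had the largest opposite pair of values, with means of 5.11 FPKM after deletion and 0.16 FPKM in untreated cells (log2 difference 2.26, unadjusted p of limma's fit across all genes = 0.000982) beside -2.41 with overexpression. The 2 deleted libraries lay far apart (SD 3.64 FPKM for Pramel7, 1.95 FPKM for Pramel6), and limma's adjusted p was 0.18 and 0.204. Both genes reached the level for testing there through the deleted libraries alone. The WT line of the overexpression had a mean of 10.8 FPKM for Pramel7. Pramel6, Htra1 and Khdc3 differed by 1.67, 1.23 and 1.11 in the deletion and by -2.15, -3.05 and -2.98 with overexpression. Tbx3 differed by 1.42 and -1.04, Zscan4c by 1.14 and -1.73, and Rhox5 by 0.64 and -1.49. On the other side, Sfrp2 and Cd24a had differences of -0.59 and -0.40 with deletion. The Xlr3 genes stood near 0 in the deletion, with -0.06 for Xlr3a and -0.04 for Xlr3b. Id2 and Gadd45g were above 0 in both comparisons, at 0.50 and 0.85 in the deletion.

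**Figure D5:**
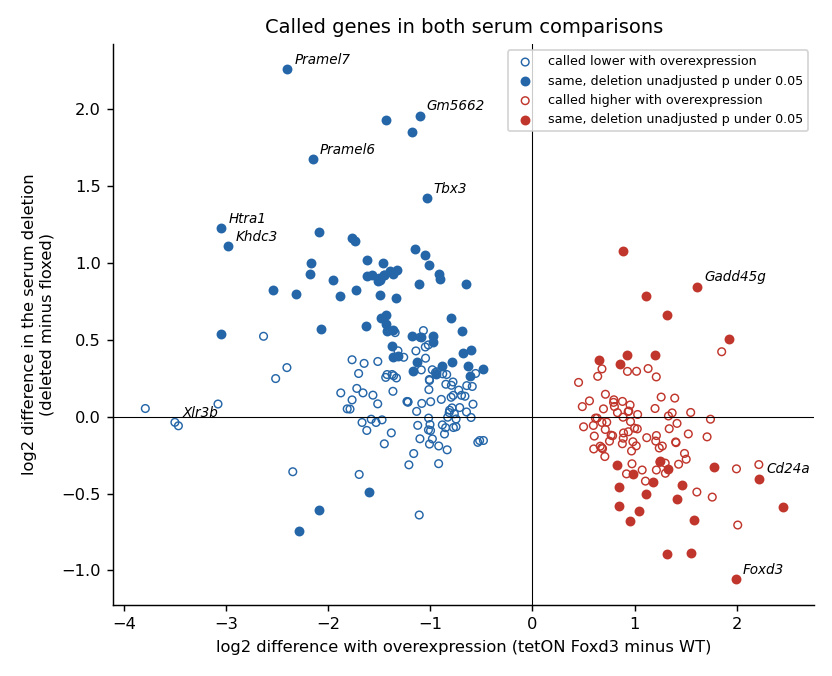
Genes called with overexpression that were tested in the serum deletion, 171 lower (blue) and 110 higher (red). The horizontal axis is the log2 difference of tetON Foxd3 minus WT and the vertical axis that of deleted minus floxed; filled points had an unadjusted p under 0.05 in the deletion. Of the blue points 132 lie above 0 and of the red points 74 below 0.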

How the data were processed

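RNA was sequenced from 12 libraries, 4 of them used for the overexpression. Per the submitters' processing notes, TopHat2, Cufflinks, SAMtools, FastQC and DESeq2 were used with builds named GRCm38 and mm10; tool versions and roles: not given in the sources used here. The authors deposited FPKM values per library, per the file headers. They also deposited mean reads per group, a coverage signal that is not in whole numbers, a signed fold change and a p-value rounded to 6 decimals; 363 folds are infinite.

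From these values, log2(FPKM + 1) was fitted with limma 3.58.1 (trend, R 4.3.3) over the 4 libraries, 2 against 2, for genes with a mean of at least 1 FPKM in a group, with Benjamini-Hochberg adjustment over all genes tested and a threshold of 0.05. The deposited p-values were adjusted in the same way over all 19996 genes. Single libraries' depth is unknown, so no counting interval is given and the 2 replicates per group limit the precision. The fit was tested on simulated data.

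Named genes were Foxd3, the 15 largest rises and 15 largest falls among called genes whose groups do not overlap, with an average across the 4 libraries of 1 FPKM or more and a log2 ratio of mean reads of the same sign and within 1 of the FPKM difference (predicted and joined symbols left out), up to 4 members by adjusted p from each of 40 gene lists, and up to 10 called genes that differed in the opposite direction in the serum deletion at an unadjusted p under 0.05. Other list and family members were named after their values were seen. The comparison, the lists and the rule were chosen with earlier results of these data known. Gene positions come from GENCODE M21 (GRCm38) and promoters from RefSeq (GRCm38.p6). Alternatives were another pseudocount, filters, scaling, a constant prior variance, the replicate number as a block, each library left out, failed estimates left out, a fold limit and the authors' p-values; leaving out distal chromosome 12 was added after seeing the data. The 2i deletion table was used only for the shares set beside the serum deletion. Some single genes are not reported here.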

Additional observations from a re-analysis of the deposited data

How the results depend on the processing

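The number of genes called, 316, was 315 with a pseudocount of 0.1, 211 with a filter of 5 FPKM, 297 after median-of-ratios scaling (98 higher and 199 lower; 294 of the 316 were called there), 293 with a constant prior variance, 319 with failed estimates left out and 289 without distal chromosome 12. The count moved to 0 with limma and no filter on low values (at an unadjusted p under 0.05, 1608 higher and 1624 lower), to 207 with a fold of at least 2 and to 909 with the authors' p-values. Leaving out 1 library gave 42 to 342 calls. For the members of the gene lists, 48 calls became 0 with no filter and 95 by the authors' p-values, and 14 to 54 with 1 library left out. Foxd3 kept its log2 difference of 1.99 with no filter but had an adjusted p of 0.0558 there, and it was 1.80 to 2.19 with 1 library left out and past the threshold each time. With the replicate number as a block, 2473 genes (1229 higher and 1244 lower) and 214 list members were called, and all 316 were among them. Same-numbered libraries deviated together (correlation 0.596). With 2 pairs and no label that ties the numbers together, what these libraries share is unknown, so the blocked counts are given only as an alternative. Of the genes with small differences, Eomes ran from -0.55 to 0.060, Snai1 from -0.30 to 0.043, Pdk1 from -0.94 to 0.0049 and Hist1h2bb from -0.37 to 0.031 with 1 library left out, so their sign turned, and none was called. A filter of 5 FPKM left no member of the 2-cell-like list. The cause of these changes was not tested.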
